A study of Mus musculus with 12 samples.

Results

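Lingo2, Ank2, Kif5c and Adgra1, genes best known from neurons, were examined in mouse embryonic fibroblasts (MEFs) as 4 of the 633 genes with a differing m6A peak between passage 3 (P3, young) and passage 9 (P9, senescent). They were chosen by name, as every row of the authors' deposited tables that carries one of these gene names, after the values of those rows were known. The rows number 7 of 1043 and form 4 sites, 1 for each gene. MEFs were taken from C57BL/6 embryos and passaged serially, and no added agent is named for either group, so that the groups share strain and medium and differ, by their labels, in passage. Whether the replicates of a passage came from separate embryos is not stated in the sources used here. Each passage had 3 MeRIP libraries, made from RNA fragments pulled down with an m6A antibody, and 3 input libraries, made from RNA without the pulldown, 12 in all. The deposited tables hold 1 fold and 1 p-value for each pair of a peak and a transcript and no value per library. No depth, no level at P3 or P9 and no spread between replicates can therefore be given for any gene below.

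N6-methyladenosine (m6A) is written on mRNA by a methyltransferase complex around METTL3, mostly in long exons and near the stop codon, and it affects the splicing, decay and translation of the mRNA that carries it. MeRIP-seq finds it as a peak, a stretch of transcript where antibody-bound fragments exceed the input. Long brain transcripts of neuronal genes are known to carry m6A, and the mark takes part in neuronal development and axon growth. Fibroblasts of a whole embryo are a mixed mesenchymal culture, in which the genes described here are not among the defining ones. Lingo2 encodes a membrane protein with leucine-rich repeats and an immunoglobulin domain, a relative of LINGO1, which limits myelination and axon growth. Adgra1 encodes an orphan adhesion G protein-coupled receptor found mainly in brain. Ank2 encodes ankyrin-B, an adaptor that ties membrane proteins to the spectrin cytoskeleton in axons and also in heart muscle. Kif5c encodes a heavy chain of kinesin-1, the motor that carries mitochondria and vesicles along microtubules toward the axon end, and it is more restricted to neurons than its relative Kif5b.

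The m6A site of Lingo2 was higher in P9 MEFs, while those of Kif5c, Adgra1 and Ank2 were lower. The Lingo2 fold ran from 2.60 to 3.27 over 4 transcripts, and the lower sites stood at a fold of 0.164 in Kif5c, 0.200 in Adgra1 and 0.230 in Ank2, each on 1 transcript. These are 6.11-fold, 4.99-fold and 4.35-fold lower values in P9 MEFs. The fold is the authors' linear ratio of the group called Treatment to that called Control, read as P9 over P3 since the tables hold as many higher and as many lower peaks as the study counts for that comparison, while the column names do not say it. Whether the input enters the fold is not given, so whether these folds allow for the level of the RNA is unknown. Of the 7 listed peaks, 3 were lower, beside 19.5% of all listed peaks. Lower peaks alone were listed for 3 of the 4 genes, beside 19.3% of all listed genes, and higher peaks alone for 1, beside 79.3%. The genes were picked with these folds in view, so nothing is read from those counts. Every p-value of the 4 genes lay between 0.0257 and 0.0479, and the upper end of this range is close to the largest listed p, 0.0490. All 7 listed peaks had a p above 0.025, beside 35.6% of all listed peaks, and 0 of 7 had a p of at most 0.01, beside 34.8%. Whether the p-values were adjusted for multiple tests is not stated.

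**Figure D1:**
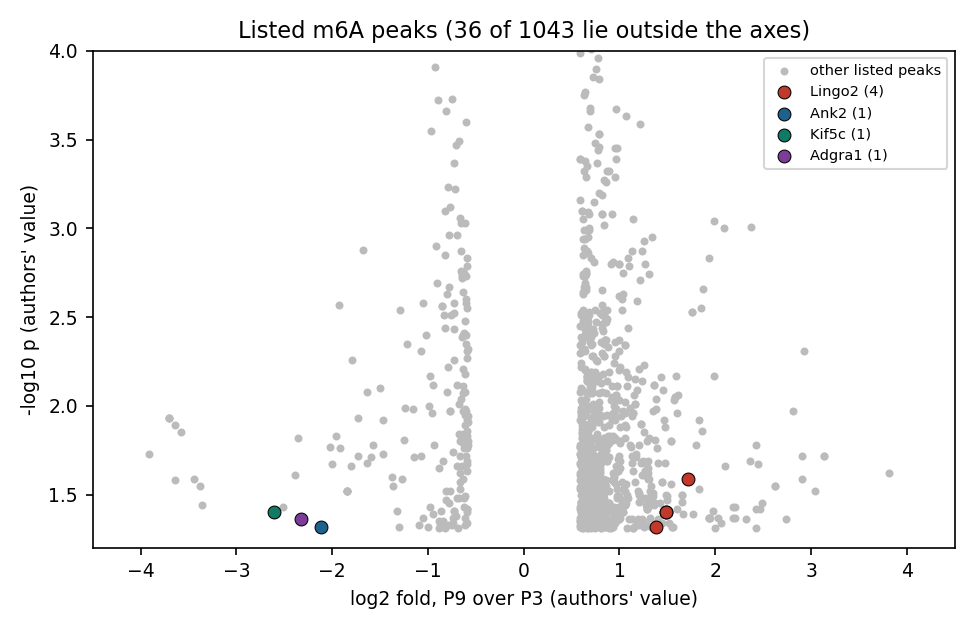
Each point is a listed m6A peak, with the log2 fold of P9 over P3 on the horizontal axis and -log10 of the p-value on the vertical axis, and coloured points are the 7 listed peaks of Lingo2, Kif5c, Adgra1 and Ank2 (2 Lingo2 points coincide). The coloured points lie low in the plot, at p-values of 0.0257 to 0.0479, and those of the lower genes lie far to the left, while 36 of the 1043 listed peaks fall outside the axes.

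Lingo2, on the minus strand of chromosome 4, was listed with a single 3' UTR site on the mouse build mm10. The site spanned chr4:35707706-35708006, which is 301 nt, and RefSeq gives the gene at 35696778 to 36951744 on GRCm38.p6, the assembly called mm10. The peak on transcript ENSMUST00000164772.7 was 271 nt long with a fold of 3.27 and a p-value of 0.0257. On ENSMUST00000098151.8 the peak of 270 nt had a fold of 2.81 and a p-value of 0.0398. On ENSMUST00000108122.7 the peak of 269 nt had the same fold and p-value. These folds come in steps of 0.01 on the log2 scale, so equal values mean equal only to that step. On ENSMUST00000065173.8 the peak of 301 nt, the longest interval, had the lowest fold, 2.60, and the highest p-value, 0.0479. All 4 transcripts thus gave a fold above 2, with 3 different values. The intervals share 260 nt, 86.4% of the site, and their genomic starts differ by at most 29 nt and their ends by at most 12 nt. Since peaks of the same direction were joined into a site by overlap, a common direction within a site follows from the joining. Apart from the joining, no lower peak was listed for Lingo2.

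**Figure D2:**
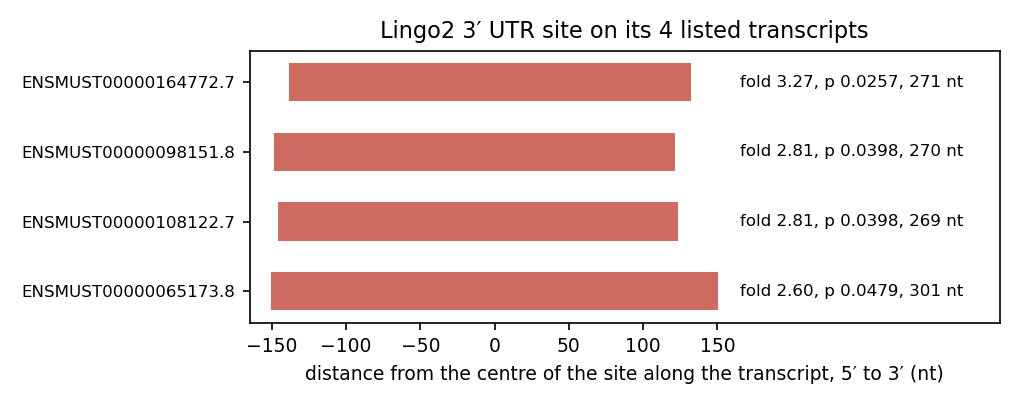
Each bar is the Lingo2 peak on 1 listed transcript, drawn in nt from the centre of the site along the transcript from 5′ to 3′, with the fold, the p-value and the length beside it. The bars overlap over 260 nt, and the longest bar, 301 nt, carries the lowest fold, 2.60.

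The Lingo2 fold differed among its transcripts more than the fold of most other sites did. Its largest fold was 1.26 times its smallest, a difference of 0.33 on the log2 scale. Across the 236 sites listed for several transcripts, 35.9% of all sites, the same ratio had a median of 1.02 (interquartile range 1.01 to 1.06), and 7 of them (2.97%) had a larger ratio than Lingo2. Of the 20 sites listed for exactly 4 transcripts, none had a larger ratio, and their median was 1.04. Among the 54 higher sites with several transcripts and a fold of at least 2 the median ratio was 1.06, with 6 sites above Lingo2. The listed transcripts of Lingo2 were 2781 to 3562 nt long, and the peak covered 7.61% to 10.3% of them. RefSeq carries the gene 10928 nt beyond the site on the 3' side, and it gives 22 transcript models for Lingo2, 4 of them curated. Transcripts whose fold or p-value missed the limit are not listed, so the spread over all transcripts may be wider than 1.26.

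**Figure D3:**
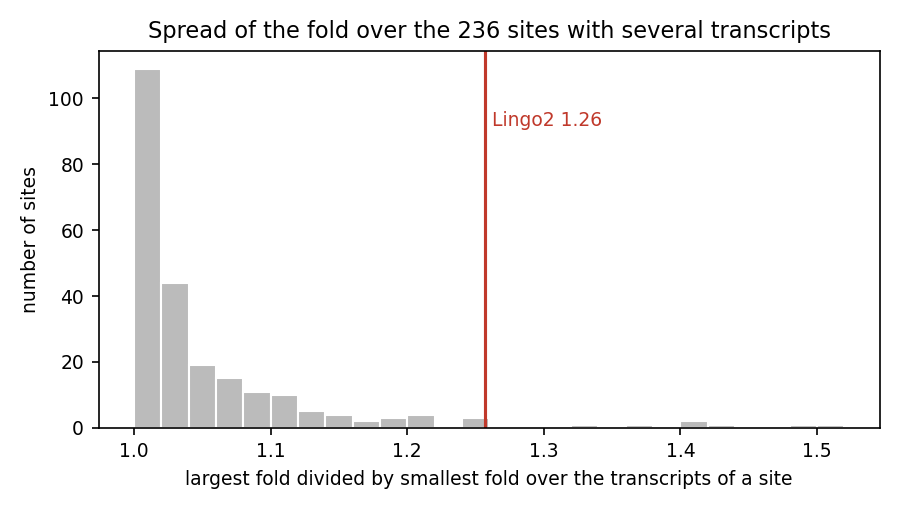
The histogram counts the 236 sites listed for several transcripts by the ratio of the largest to the smallest fold within the site, and the vertical line marks Lingo2. Most sites lie near the median of 1.02, and Lingo2, at 1.26, lies in the right tail.

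Among the 511 genes with a higher peak, taken at the transcript with the smallest p-value, Lingo2 ranked 33 by fold, just after Cp (fold 3.39) and just before C87436 (fold 3.16). Cp encodes ceruloplasmin, a copper-carrying ferroxidase. With the lowest of its folds, 2.60, Lingo2 would stand at rank 58. By p-value it ranked 330, with 64.4% of the genes at a smaller p. Of the 440 higher peaks wholly in the 3' UTR, 52.4% of the higher peaks, the median fold was 1.74 (interquartile range 1.59 to 2.08) and the median p-value 0.0178. The genes whose higher 3' UTR fold was most like that of Lingo2, by the log2 difference over 282 other genes, were Cp (0.05 apart) and Dzip1 (fold 3.03, 0.11 apart), a gene of cilium formation and Hedgehog signalling. Their p-values, 0.00295 and 0.0110, were smaller than that of Lingo2.

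Kif5c, on the plus strand of chromosome 2, had the strongest decrease of the 4 genes. Its peak on transcript ENSMUST00000028102.13 had a fold of 0.164 and a p-value of 0.0398 and lay wholly in coding sequence. The peak was split over a pair of exon blocks. The first ran from 49723053 to 49723149, which is 97 nt and 80.8% of the peak, and the second from 49727891 to 49727913, which is 23 nt, with 4741 nt between them. The whole span, chr2:49723053-49727913, thus holds 120 nt of exon. Several blocks were found in 68 of the 91 coding-only lower peaks (74.7%). Only 60 of the 1043 listed peaks (5.75%) were shorter than the Kif5c peak, which covered 1.75% of a transcript of 6856 nt. RefSeq places the gene at 49619286 to 49774778 with 1 transcript model, and 66.7% of the gene lies upstream of the peak.

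Adgra1, on the plus strand of chromosome 7, had a coding peak at chr7:139875365-139875575 with a fold of 0.200 and a p-value of 0.0437. The peak was a single block of 211 nt, 4.43% of transcript ENSMUST00000026548.13, which is 4758 nt long. RefSeq places Adgra1, also called Gpr123, at 139834097 to 139878088 with 2 transcript models, and 2513 nt of the gene lie on the 3' side of the peak.

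Ank2, on the minus strand of chromosome 3, had a coding peak at chr3:126946443-126946653 with a fold of 0.230 and a p-value of 0.0479, the highest p-value of the lower genes described here. It too was a single block of 211 nt, but on transcript ENSMUST00000182078.8 of 14305 nt, which ranked 16 by length among the 1013 transcripts in the tables, against a median length of 3522 nt over all listed peaks. The peak covered 1.48% of this transcript. RefSeq gives Ank2 at 126921607 to 127500347 with 51 transcript models, 4 of them curated, and the tables list 1 Ensembl transcript. Thus 95.7% of the gene lies upstream of the peak. Whether the other transcripts of Ank2 missed the limit or were not examined is not stated.

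No other RefSeq gene overlapped any of the 4 sites, on either strand. None of the sites overlapped the promoter windows of these genes in RefSeq, so no promoter sequence is shown. The peaks of Ank2 and Adgra1 were equally long, and such lengths recur in the tables. Over all listed peaks, 78.1% of the lengths lay within 1 nt of a multiple of 30 nt, as all 7 listed peaks of the 4 genes did, where evenly spread lengths would give 10%. A length of 211 nt was shared by 26 listed peaks. The position of the methylated base within a peak is not resolved.

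Kif5c, Adgra1 and Ank2 ranked 4, 8 and 9 by the size of the decrease among the 131 genes with a lower peak. A decrease of 4-fold or more was listed for 10 of these genes, or 7.63%, and the other 7 are Zfp982, Wnt10b, Nhs, S100a7a, Pcdhb21, Ildr2 and Zfp235. Kif5c stood between Nhs (fold 0.0974), which encodes an actin regulator at cell junctions, and S100a7a (fold 0.176), of the S100 calcium-binding family. Adgra1 followed Ildr2 (fold 0.195), which encodes an immunoglobulin-like receptor of tricellular junctions, and Ank2 followed Adgra1 and stood before the zinc finger gene Zfp235 (fold 0.247). The folds of Adgra1 and Ildr2 differ by little, and with no replicate values no neighbours in this order can be said to differ. Of the 18 listed peaks with a decrease of this size, those of Kif5c, Adgra1 and Ank2 had the 3 largest p-values, and the p-values of the other 15 ran from 0.0117 to 0.0372. By p-value among all 131 genes, Kif5c ranked 116, Adgra1 122 and Ank2 128. The median p-value was larger at larger decreases across the tables, being 0.00912 for lower peaks under 2-fold, 0.0180 from 2-fold to under 4-fold and 0.0230 at 4-fold or more. For higher peaks the medians in the same bands were 0.0170, 0.0204 and 0.0282.

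**Figure D4:**
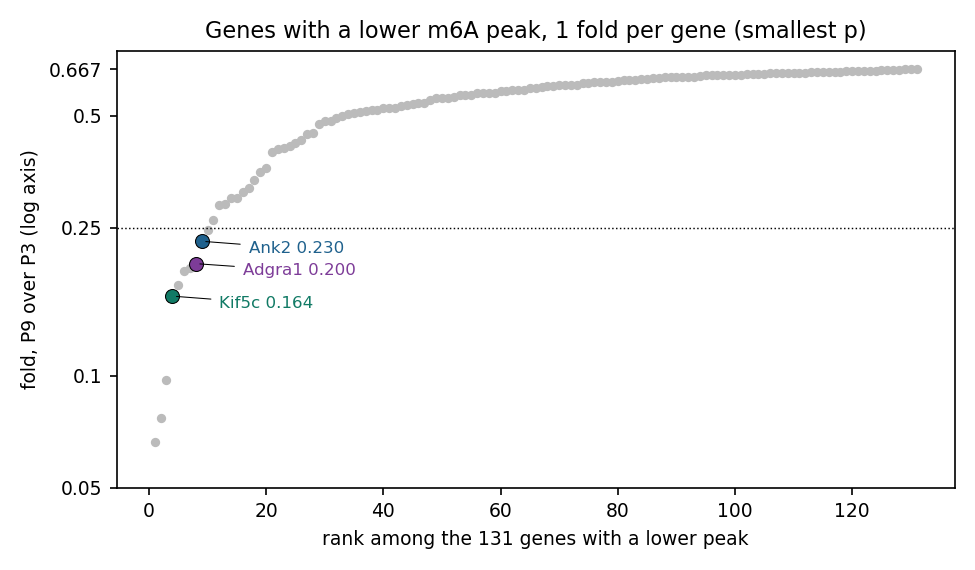
Each point is 1 of the 131 genes with a lower m6A peak, ranked by the fold of P9 over P3 at the transcript with the smallest p-value, on a log axis, and the dotted line marks a fold of 0.25. Kif5c (0.164), Adgra1 (0.200) and Ank2 (0.230) lie below the line, at ranks 4, 8 and 9.

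The sites of Kif5c, Adgra1 and Ank2 have in common that they lie wholly in coding sequence, as do 44.8% of the lower listed peaks, and that they are listed for 1 transcript, as are 91 of the 132 lower sites (68.9%). Coding-only lower peaks had a median fold of 0.618 (interquartile range 0.499 to 0.653), a median p-value of 0.0158 and a median length of 235 nt (interquartile range 181 to 311). All 3 genes lay below this range in fold, and Kif5c also lay below it in length. Over 58 other genes with a coding-only lower peak, the gene most like Kif5c in log2 fold was Pcdhb21 (fold 0.191, 0.22 apart), followed by Adgra1 (0.29 apart). Pcdhb21 encodes a clustered protocadherin, a family of cell adhesion proteins best known from neurons. Pcdhb21 was also the gene most like Adgra1 (0.07 apart), and Adgra1 the gene most like Ank2 (0.20 apart). All these genes were compared by fold alone, within 1 comparison.

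The families of Kif5c, Lingo2 and Adgra1 held other listed genes, at changes under 4-fold, as at most listed genes. Of all 21900 protein-coding genes of RefSeq, 613 or 2.8% had a listed peak, a share that counts genes the fibroblasts may not express. A change of 4-fold or more was listed for 24 of the 511 genes with a higher peak (4.7%), beside 7.63% of those with a lower one. No list was tested against these shares. Of 43 genes on the list of the kinesin superfamily 5 had a listed peak. Apart from Kif5c these were Kif4, a motor of mitotic chromosomes, at a fold of 2.00, Kif21a at 1.80 and Kif1b, a motor for synaptic vesicle precursors and mitochondria, at 1.61, all higher, and Kif2a, which shortens microtubules, lower at 0.652. Kif5a and Kif5b, the other heavy chains of kinesin-1, had no listed peak. That list does not hold every kinesin gene. Stard9, a kinesin gene outside it, had a higher coding peak at a fold of 1.61. Of 22 light chains, adaptors and cargo proteins of kinesin-1, Trak1, which links the motor to mitochondria, was listed, with a lower 5' UTR peak at a fold of 0.584. Of 32 ankyrins and their partners, Ank2 alone was listed. Of 44 genes for LINGO and other leucine-rich repeat proteins, Lrig1, which dampens growth factor receptors, was listed beside Lingo2, with a higher 3' UTR peak at a fold of 2.01. Of 30 adhesion G protein-coupled receptors, 3 were listed, Adgra1 lower and both others higher. Adgrg6, which Schwann cells need for myelination, had a coding peak at a fold of 1.78, and Adgrl1, a latrophilin, had a 3' UTR peak at 1.66. The p-value was 0.000955 for Adgrg6 and 3.16e-05 for Adgrl1, both below that of Adgra1. Lrig1, at a p-value of 0.00603, was likewise below Lingo2. Of the other kinesins on the list Kif4 (0.00427), Kif2a (0.00661) and Kif1b (0.0339) had a smaller p-value than Kif5c, and Kif21a (0.0479) a larger one.

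**Figure D5:**
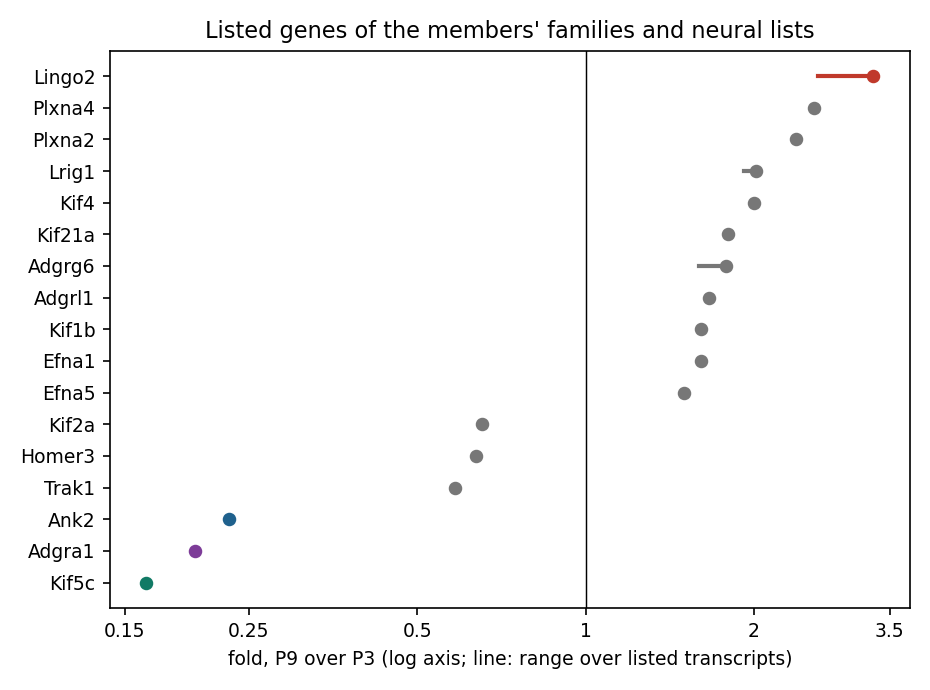
Each point is the fold of P9 over P3, on a log axis, of a listed gene from the family lists of the 4 genes or from the neuron, synapse and axon guidance lists, at the transcript with the smallest p-value, and lines show the range over listed transcripts. Lingo2 lies at the upper end, at 3.27, and Kif5c, Adgra1 and Ank2 lie at the lower end, while the other genes of these lists lie between 0.584 and 2.57, and listed neuron-associated genes outside the lists, such as Pcdh9 and Pcdhb21, are not drawn.

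None of 40 neuron markers, among them Rbfox3, Tubb3, Map2, Snap25 and Syt1, had a listed peak, beside 2.8% of all protein-coding genes, at which a list of this size would hold few or none. The same was true of all 19 glial and Schwann cell markers and of all 15 neural progenitor and neural crest markers, all 18 endothelial, blood and epithelial markers and all 22 writers, erasers and readers of m6A. Of 24 fibroblast markers, Fbn1, which encodes fibrillin-1, was listed, with a lower 5' UTR peak at a fold of 0.506. Of 16 muscle markers, Tnnt1 was listed as higher, at a fold of 4.53. The absence of a listed peak says nothing of the level of a gene, so whether the libraries hold RNA of neurons or glia was not tested. The name of the group as neuron-associated rests on what the genes are known for and not on any level in these cells. Of 42 synaptic adhesion and receptor genes, the scaffold gene Homer3 was listed, as lower (fold 0.638). Of 60 axon guidance genes 4 were listed, all higher and all in the 3' UTR, as were 79.3% of all listed genes by direction and 52.4% of the higher peaks by place. They are the semaphorin receptor genes Plxna4 (fold 2.57) and Plxna2 (fold 2.38) and the ephrin genes Efna1 (fold 1.61) and Efna5 (fold 1.50). Over the 8 lists of families, neuron markers, synapse and axon guidance, 17 of 313 genes were listed, beside 2.8% of all protein-coding genes. The 17 include the 4 genes described here, which were known to be listed when chosen, so nothing is read from this count. Of the 13 besides the 4 described here, 10 were higher and 3 lower, beside the 79.3% of all listed genes with higher peaks only, and none changed by 4-fold or more. These lists do not hold every listed gene known from neurons, and some outside them changed by 4-fold or more. Chosen after their values were seen, examples are the protocadherin genes Pcdh9 (fold 5.54), Pcdhgb8 (fold 4.99) and Pcdhb21 (fold 0.191). A further example is Shtn1 (fold 4.63), which encodes shootin-1 of the axonal growth cone. Nptxr, chosen in the same way, encodes the neuronal pentraxin receptor and changed less, with a fold of 2.75 beside 3.27 for Lingo2.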

How the data were processed

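MeRIP and input libraries of P3 and P9 MEFs (3 of each) were made with a stranded kit. The authors deposited tables of differing peaks alone, holding for each peak and transcript a fold (ratio) of Treatment to Control and a p-value of the authors' comparison. The fold and p-value columns are the authors' own results and were described, not recomputed or tested. Per the labels the build is mm10. Not given in the sources used here are aligner, peak caller and test, whether the input enters the fold, and whether strand was used in counting.

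Listed peaks of 1 direction and strand whose exon blocks overlapped or touched were joined into a site, checked on simulated intervals. Starts were converted to count from 1. A gene with several transcripts took its fold and rank from the one with the smallest p. The 4 genes and the gene lists were chosen with earlier results of these data known, and no test was run. The genes named were the 4 genes, every listed gene of their family lists and up to 4 listed genes of each other list. The 2 genes nearest each of the 4 in log2 fold, with the same direction and region, were also named. Rank neighbours, genes lower by 4-fold or more and genes outside the lists were added after their values were seen. All 425 list genes were matched by symbol, and 1 further gene is not reported here. RefSeq annotation was that of GRCm38.p6. Python 3.11.15, numpy 2.4.6, pandas 2.3.3 and matplotlib 3.10.9 were used.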

Additional observations from a re-analysis of the deposited data

How the results depend on the processing

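With the fold nearest 1 the Lingo2 value was 2.60 and with the median over its transcripts 2.81, in place of 3.27. Its rank was 34, in place of 33, both over merged sites and by the largest change of each gene. At a p of at most 0.01, which 34.8% of all listed peaks meet, 0 of the 4 sites and 0 of the 3 genes with only lower peaks were left, because that limit removes every listed peak of the 4 genes. The other 22 of 28 alternative values equalled the reported ones, among them the number of sites with whole intervals or with peaks up to 100 nt apart joined, and those at a change of at least 2-fold. Many of these could not have differed. Kif5c, Adgra1 and Ank2 are each listed on 1 transcript, all 4 genes changed by more than 2-fold, and each of their peaks carries a single region label. The tally is therefore no measure of how firm the values are. The spread over transcripts with identical exon blocks gave no value, as no such pair is listed for Lingo2. No paired analysis was possible because the tables hold no value per replicate. The depth behind the peaks is unknown, and with it the precision of every fold.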
